A study of Homo sapiens with 29 samples.

Results

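The proteasome genes of a human β-cell line were followed across 3 kinds of conditioned medium and 3 batches of libraries. Members were the protein-coding genes whose symbol starts with PSMA, PSMB, PSMC, PSMD, PSME, PSMF or PSMG, without PSMB8, PSMB9 and PSMB10, and with a mean CPM (the count scaled to a common library total) of at least 1 over the 29 libraries. Of 66025 entries in the table, 47 symbols matched and 45 passed the minimum. PSMA8, a germ-cell form of the α ring, was listed at 0, and PSMB11, the thymus form of the β ring, at a mean of 0.0143 CPM. All 45 members also passed the filter on low counts that preceded the tests.

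The cells were EndoC-βH1, an established human line with the features of pancreatic β cells. They were kept for 10 days in medium that HEK293 cells, a human embryonic kidney line, had conditioned for 3 h. The HEK293 cells stably overexpressed an empty vector (EV), the wild-type CEL gene (WT) or a mutant CEL gene (MUT). Carboxyl ester lipase, the product of CEL, digests dietary fat and is made by acinar cells. All 3 media were filtered, brought to equal protein and renewed daily. There were 11 libraries in batch 1 (3 for EV, 4 for WT, 4 for MUT) and 9 in each of batches 2 and 3, with 3 per medium. The labels do not say what a batch shared, which mutation MUT carries, how many clones each HEK293 line had, or whether the libraries of a set were separate cultures. The p-values thus rest on how far the libraries of a set differ, and that spread may be technical only. In the main fit, with batch and medium as terms, they also rest on how far the medium effects differ between batches.

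The proteasome is the large protease that degrades ubiquitin-tagged proteins in the cytosol and nucleus. Its 20S core is a barrel of outer α rings (PSMA genes) and inner β rings (PSMB genes), and PSMB5, PSMB6 and PSMB7 encode the β subunits with proteolytic activity. The 19S cap binds ubiquitin chains, removes them and unfolds the substrate with a ring of ATPases (PSMC genes) and a set of non-ATPase subunits (PSMD genes). In its place the core can bind activators such as PA28 (PSME1 with PSME2, or PSME3) or PA200 (PSME4), and dedicated chaperones (PSMG1 to PSMG4 for the core, PSMD5, PSMD9 and PSMD10 for the cap) help it to assemble. NFE2L1 is the transcription factor known to raise proteasome genes together when proteolysis falls short, through antioxidant response elements. β cells make secretory protein at a high rate and rely on this route for misfolded proinsulin and other proteins returned from the endoplasmic reticulum.

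The promoters of 4 members at some of the ends of the batch pattern described below are shown. PSMB3 had the largest difference between batches 2 and 1, and PSME1 and PSME2 the largest between batches 3 and 2. PSME4 was the only activator below batch 1 in both batches 2 and 3. Each promoter is the RefSeq window on GRCh38.p14 from 250 bases before to 50 bases after the gene's start, 5′ to 3′ along the gene. Capitals mark the core of the antioxidant response element, TGACNNNGC, or its reverse complement. The windows are chr17:38752491-38752790 on the plus strand for PSMB3, chr14:24135944-24136243 on the plus strand for PSME1, chr14:24146561-24146860 on the minus strand for PSME2, and chr2:53970944-53971243 on the minus strand for PSME4.
PSMB3: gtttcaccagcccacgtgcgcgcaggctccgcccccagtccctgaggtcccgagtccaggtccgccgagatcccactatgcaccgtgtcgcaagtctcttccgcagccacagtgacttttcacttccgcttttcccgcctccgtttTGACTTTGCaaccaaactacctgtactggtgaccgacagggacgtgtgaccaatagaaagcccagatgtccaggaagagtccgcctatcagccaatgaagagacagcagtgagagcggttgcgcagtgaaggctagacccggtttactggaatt
PSME1: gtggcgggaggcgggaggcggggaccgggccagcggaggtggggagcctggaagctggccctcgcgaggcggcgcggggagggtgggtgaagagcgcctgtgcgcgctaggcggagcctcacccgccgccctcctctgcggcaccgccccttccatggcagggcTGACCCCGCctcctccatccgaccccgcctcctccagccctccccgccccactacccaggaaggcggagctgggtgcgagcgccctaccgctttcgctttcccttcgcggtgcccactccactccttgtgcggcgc
PSME2: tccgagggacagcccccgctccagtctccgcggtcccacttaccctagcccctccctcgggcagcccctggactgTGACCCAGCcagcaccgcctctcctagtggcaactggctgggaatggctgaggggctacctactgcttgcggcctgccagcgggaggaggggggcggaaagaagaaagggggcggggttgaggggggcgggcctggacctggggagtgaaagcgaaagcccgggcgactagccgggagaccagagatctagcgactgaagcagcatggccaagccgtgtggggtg
PSME4: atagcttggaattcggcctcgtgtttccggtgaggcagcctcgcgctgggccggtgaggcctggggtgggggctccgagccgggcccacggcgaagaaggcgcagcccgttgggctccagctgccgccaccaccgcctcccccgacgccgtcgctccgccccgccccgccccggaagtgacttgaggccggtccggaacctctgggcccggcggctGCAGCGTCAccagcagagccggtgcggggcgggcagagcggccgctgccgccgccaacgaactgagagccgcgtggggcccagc

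The core began 104 bases before the start of PSMB3, 86 before that of PSME1, 175 before that of PSME2 and 34 before that of PSME4. Windows were found for 39 of the 45 members, and PSMD4, PSMA7, PSMG3, PSMB1, PSMB6 and PSMB7 had none. With both strands read, TGACNNNGC was in 14 of the 39 (35.9%), against 2840 of 15842 genes with a window (17.9%). The ETS core CCGGAAG was in 16 of the 39 (41.0%, against 16.5% of all windows). CCAAT was in 20 (51.3% against 42.1%) and TATAAA in 4 (10.3% against 12.4%). No TGACNNNGC match in the members overlapped a match to another of these motifs. The 14 members with TGACNNNGC had a median log2 difference of batch 2 against batch 1 of 0.33, and the 25 without it one of 0.43. The part of this motif in the batch differences was not tested. The 4 genes shown all hold TGACNNNGC. PSMA6 (0.90), PSMG4 (-0.20) and PSMC3IP (-0.48), also at the ends of that comparison, do not hold it and are not shown.

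The libraries held 26201744 to 40246537 estimated counts each. β-cell markers were present throughout, with a summed level of 20715 to 24992 CPM in batch 1, 21004 to 26971 in batch 2 and 23523 to 31396 in batch 3. Of 7 genes listed for HEK293 cells, 5 had a mean under 1 CPM, and their summed level was 16.3 to 19.3 CPM in batch 1, 15.6 to 18.9 in batch 2 and 16.4 to 21.9 in batch 3. Within that sum LIN28B had a median of 14.7 CPM in batch 1 and 10.3 in batch 2, NEFM of 2.65 and 5.94, and CRABP1 of 0.178 and 0.875. Acinar markers had means under 1 CPM for 5 of 6 genes, 2 of them at 0 in every library. Means under 1 CPM were also found for 3 of 4 duct, 4 of 5 fibroblast, 2 of 3 immune and 2 of 2 endothelial markers. The markers that were present moved with batch or medium. Of 13 β-cell markers, 9 were higher and 0 lower in batch 2 than in batch 1, with a median of 0.38. In batch 3, 8 were higher and 1 lower, with a median of 0.48. Of all genes, 33.8% were higher and 33.0% lower in batch 2, and 30.0% and 26.8% in batch 3. The β-cell sum was 24764 to 26971 CPM in EV and 21004 to 22194 in MUT libraries of batch 2, and 24457 to 25994 and 27649 to 31396 in batch 3. CD68, a lysosomal marker of macrophages, ranged from 28.7 to 38.8 CPM in batch 1, and the immune sum that it made up was 126 to 134 CPM in EV, 58.8 to 62.4 in WT and 36.8 to 37.8 in MUT libraries of batch 2 and 41.8 to 55.5 in batch 3. CPA1, an acinar carboxypeptidase, was at -0.79 in batch 2 against batch 1, and the duct genes SOX9 and KRT19 were higher by 1.64 and 0.22. The part of these in the members' differences was not tested. Mitochondrially encoded transcripts made up 5.77 to 8.28% of counts in batch 1, 3.99 to 5.41% in batch 2 and 3.60 to 5.05% in batch 3. In bulk RNA, fewer cells of a type and less RNA per cell cannot be told apart.

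The members were compared with one another as CPM per kilobase of each gene's principal transcript, averaged over the 29 libraries. PSMA7, an α subunit, had the highest level at 158 ± 29.0 CPM per kb (SD over 29 libraries), and PSME3, the nuclear PA28γ, followed with 137 ± 11.6. PSMB4 (133), PSMB5 (124) and PSMB1 (117), subunits of the β ring, came next. The lowest levels were those of PSMD9 at 10.4 CPM per kb, PSME4 at 10.6, PSMG1 at 11.4 and PSMG3 at 11.5. By role, the median CPM per kb was 83.9 for the β ring, 51.5 for the non-ATPases, 46.4 for the α ring and 35.6 for the ATPases. Assembly factors were the scarcest transcripts, with medians of 15.8 for those of the core and 15.7 for those of the cap. The activators and the inhibitor ranged from 10.6 to 137 CPM per kb. These levels assume the annotated principal transcript, taken as the longest where several shared the best rank. The order of the genes and roles depends on that choice. The counting could not separate PSMC4, PSME1 and PSME2 from a second entry that repeats their counts in full. Whether reads were divided between such entries is not given in the sources used here, so the levels of these genes may be too low.

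**Figure D1:**
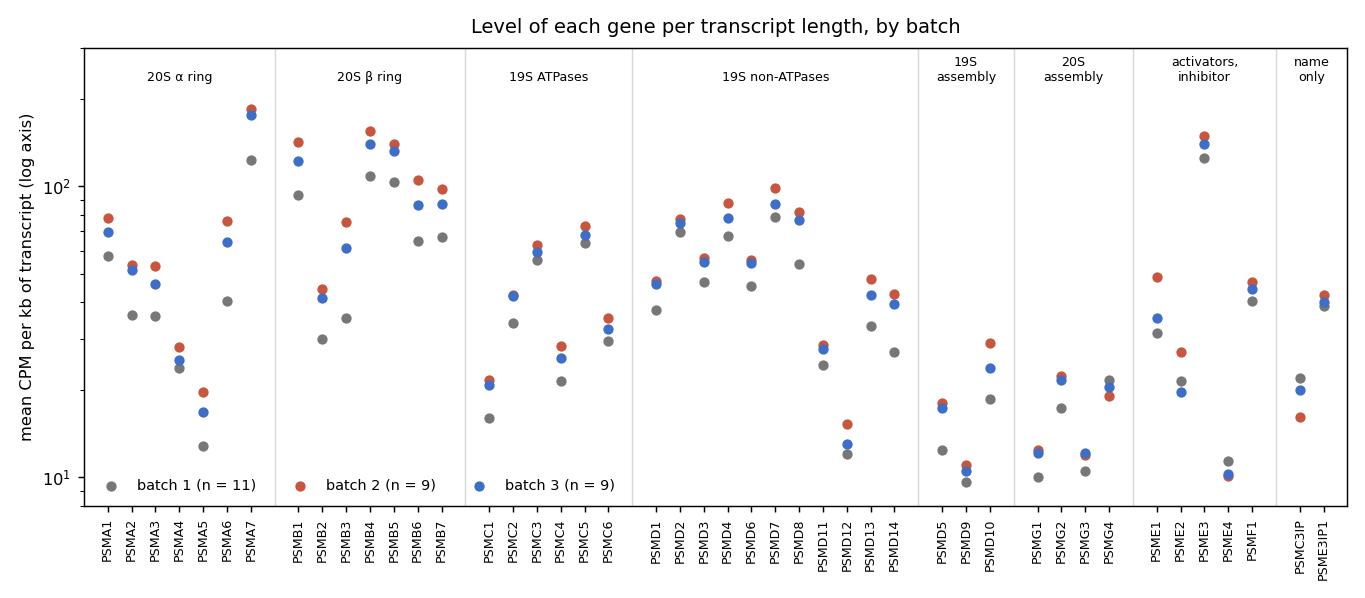
Mean CPM per kilobase of principal transcript of each of the 45 members in each batch (points, coloured by batch), on a log axis, grouped by role. PSME3 lies highest in batch 1 (125), and PSMA7 in batches 2 and 3 (184 and 175). PSMD9 lies lowest in batch 1 (9.65), and PSME4 in batches 2 and 3 (10.1 and 10.2). Both groups of assembly factors sit below most subunits.

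Batch was the main axis of variation for these genes. The median member had 85.9% of its variance in log2 CPM between batches, 1.41% between media, 4.51% between media within a batch and 6.08% between libraries of a set. Over all 21259 genes tested, the same medians were 46.7%, 4.84%, 14.4% and 22.5%. The median SD between libraries of a set was 0.06 on the log2 scale for members and 0.12 for all genes. As a group, the members took 0.327 to 0.357% of the counts in batch 1, 0.427 to 0.446% in batch 2 and 0.397 to 0.417% in batch 3, and these 3 ranges did not overlap.

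Proteasome transcripts were higher in batch 2 than in batch 1 in all 3 media. In edgeR's quasi-likelihood test with batch and medium as terms and Benjamini-Hochberg adjustment over all genes, 42 members were higher in batch 2 and 3 were lower. Of all genes tested, 66.8% passed in this comparison, 33.8% higher and 33.0% lower. The median log2 difference was 0.36 for the members and -0.01 for all genes. The lowest batch 2 library lay above the highest batch 1 library for 37 of the 45 members, against 14.4% of all genes. The other 8, whose ranges overlapped, were PSMC3, PSMD9, PSMD2, PSMG3, PSMG4, PSME4, PSMC3IP and PSME3IP1. Here and for batch 3 below, the share of all genes with ranges apart is not matched to the members for level or spread. The median SD between libraries of a set was 0.06 for members and 0.12 for all genes. Within the EV, WT or MUT libraries alone, 40, 41 and 40 members passed, with medians of 0.39, 0.38 and 0.33. The share of all genes that passed in these smaller fits is not given here, so the counts are not read as particular to the members.

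Batch 3 also lay above batch 1, by less. Here 38 members were higher and 2 lower, where 56.8% of all genes passed (30.0% higher, 26.8% lower), and the medians were 0.27 for members and 0.00 for all genes. Ranges were apart and higher for 26 members, against 13.2% of all genes. Against batch 2, batch 3 had 26 members lower and 1 higher, where 44.6% of all genes passed (22.2% higher, 22.4% lower). The median difference was -0.09, and 7 members (PSMA1, PSMA5, PSMA6, PSMB6, PSMD10, PSME1 and PSME2) had ranges apart and lower, against 4.61% of all genes. That count of 27 fell to 16 when the correlation between libraries of a set was estimated and to 6 when each set was summed. How many of all genes passed in those fits is not given here.

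Among the members, transcript length moved with these differences, and base composition did so less. Across the 45 members, Spearman's rho between the batch 2 against batch 1 difference and transcript length was -0.37, and over all genes it was -0.10. For GC content rho was -0.13 across the members and -0.08 over all genes. With length and GC content entered as offsets, a setting chosen after the data were seen, 38 members passed (35 higher, 3 lower) and the median fell to 0.22. In the same setting the median of batch 3 against batch 1 was 0.14, with 30 members higher and 4 lower. The share of all genes that passed with the offsets is not given here. The part of length, of base composition and of the mitochondrial share in the remaining difference was not tested.

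**Figure D2:**
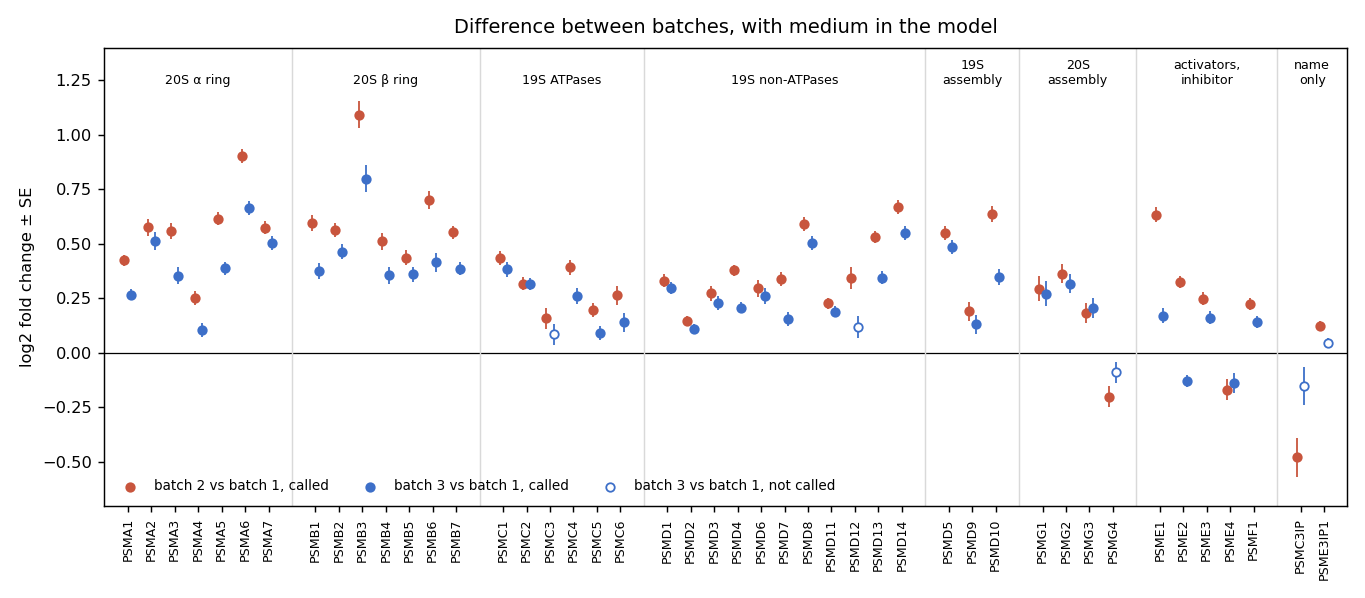
Log2 difference of batch 2 and of batch 3 against batch 1 for each member, by role, with the standard error of the edgeR fit. Both rings of the core lie above 0, led by PSMB3 at 1.09 and PSMA6 at 0.90 in batch 2. PSMG4, PSME4 and PSMC3IP lie below 0 in both batches, and PSME2 in batch 3 only (-0.13).

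The α ring, which gates the entry to the barrel, was higher in batch 2: 7 of 7 members passed, with log2 differences from 0.25 to 0.90 and a median of 0.57. PSMA6 (chr14:35278633-35317493, GRCh38) moved most. PSMA6 ranged from 39.7 to 44.9 CPM in batch 1 (median 41.6), from 71.0 to 89.1 in batch 2 (median 77.4) and from 62.7 to 69.8 in batch 3 (median 66.1). The 3 ranges were apart, and batch 2 was higher than batch 1 by 0.90 ± 0.03 log2 (standard error, adjusted p = 2.28e-19, 1.87-fold), batch 3 by 0.66 ± 0.03. The batch 1 libraries held 115 to 135 CPM of PSMA7 (median 123), those of batch 2 171 to 201 (median 182) and those of batch 3 159 to 185 (median 178). Batches 2 and 3 overlapped for PSMA7 and both lay above batch 1, by 0.57 ± 0.03 (adjusted p = 4.89e-16) and 0.50 ± 0.03. Mean PSMA7 levels in EV, WT and MUT medium were 122, 125 and 122 CPM in batch 1, 194, 182 and 175 in batch 2, and 175, 181 and 168 in batch 3 (SD 0.693 to 7.99, n = 3 or 4). PSMA5, an α subunit, had a difference of 0.61 ± 0.03 in batch 2 and 0.39 ± 0.03 in batch 3. PSMA4 moved least, by 0.25 ± 0.03 and 0.10 ± 0.03. In batch 3 the ring again had 7 of 7 members higher than in batch 1, with a median of 0.39, and 5 of 7 lower than in batch 2.

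The β ring, which holds the active sites, had 7 of 7 members higher in batch 2, from 0.44 to 1.09 with a median of 0.56, and 7 of 7 higher in batch 3, with a median of 0.39. PSMB3 (chr17:38752736-38764231), a structural β subunit, had the largest difference of any member. For PSMB3 the median was 28.0 CPM in batch 1 (22.9 to 32.2), 58.6 in batch 2 (53.3 to 62.2) and 49.6 in batch 3 (34.8 to 56.6). The lowest library of batch 2 and of batch 3 lay above the highest of batch 1, and batches 2 and 3 overlapped. The difference was 1.09 ± 0.06 for batch 2 (adjusted p = 2.27e-15, 2.13-fold) and 0.80 ± 0.06 for batch 3 (adjusted p = 4.82e-12).

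The 3 catalytic subunits were all higher in batch 2. PSMB6, the caspase-like subunit, was higher by 0.70 ± 0.04 in batch 2 (adjusted p = 1.08e-14) and by 0.42 ± 0.04 in batch 3. PSMB6 ranged from 51.4 to 60.3 CPM in batch 1 (median 54.9), from 79.0 to 100.4 in batch 2 (median 92.7) and from 60.9 to 77.9 in batch 3 (median 75.2). Its batch 3 libraries lay wholly between those of the other batches. The batch 1 libraries held 60.9 to 69.5 CPM of PSMB7 (median 66.8), those of batch 2 93.1 to 99.2 (median 95.3) and those of batch 3 80.0 to 94.4 (median 82.5). PSMB7, the trypsin-like subunit, was higher by 0.55 ± 0.03 and 0.39 ± 0.03, with all batch 1 libraries below the rest. By medium, in the order EV, WT and MUT, PSMB7 averaged 64.7, 65.0 and 66.6 CPM in batch 1, 94.1, 95.5 and 98.1 in batch 2, and 82.2, 84.3 and 90.0 in batch 3 (SD 0.667 to 6.54, n = 3 or 4). For PSMB5 the median was 135 CPM in batch 1 (124 to 146), 191 in batch 2 (157 to 194) and 173 in batch 3 (162 to 177). PSMB5, the chymotrypsin-like subunit, was higher by 0.44 ± 0.04 (adjusted p = 6.10e-12) and 0.36 ± 0.04, the smallest change of the ring in batch 2. In batch 3 the smallest was that of PSMB4, also 0.36.

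The ATPase ring of the cap, which threads substrates into the core, was also higher. All 6 members passed in batch 2, from 0.16 for PSMC3 to 0.44 for PSMC1, with a median of 0.29, and 5 of 6 were higher in batch 3, where PSMC3 missed the threshold at 0.09 ± 0.05 (adjusted p = 0.135). The batch 2 difference of PSMC3 was 0.39 in EV libraries alone, 0.10 in WT (adjusted p = 0.112) and -0.03 in MUT (adjusted p = 0.707). PSMC6 ranged from 60.9 to 69.2 CPM in batch 1 (median 65.2), from 72.5 to 86.1 in batch 2 (median 76.5) and from 66.4 to 89.4 in batch 3 (median 68.7). PSMC6, a subunit of this ring, was higher by 0.26 ± 0.04 in batch 2 (adjusted p = 4.53e-06), with ranges apart, and by 0.14 ± 0.04 in batch 3, with ranges that overlapped. With the length and GC offsets PSMC6 passed in neither batch, at 0.05 and -0.04, and PSMG3, a core chaperone, did not pass in batch 2, at 0.09. The WT libraries of batch 3 held 89.4, 70.1 and 69.4 CPM of PSMC6, and without the first of them (replicate 1) its batch 3 difference was 0.07 and did not pass. PSMC6 means for EV, WT and MUT were 62.2, 65.0 and 65.4 CPM in batch 1, 79.3, 74.0 and 78.4 in batch 2, and 69.8, 76.3 and 66.9 in batch 3 (SD 0.702 to 11.4, n = 3 or 4).

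Among the non-ATPase subunits of the cap, 11 of 11 were higher in batch 2, from 0.14 to 0.67 with a median of 0.34, and 10 of 11 in batch 3, with a median of 0.23. PSMD14 (chr2:161308038-161411717), the deubiquitinase that cuts the chain from the substrate, led them. The batch 1 libraries held 49.4 to 57.1 CPM of PSMD14 (median 52.1), those of batch 2 79.1 to 91.5 (median 82.2) and those of batch 3 71.8 to 84.4 (median 77.2). It was higher by 0.67 ± 0.03 in batch 2 (adjusted p = 5.43e-17) and by 0.55 ± 0.03 in batch 3, and all batch 1 libraries lay below all others. Mean PSMD14 levels in EV, WT and MUT medium were 51.6, 50.7 and 55.5 CPM in batch 1, 86.6, 80.8 and 83.7 in batch 2, and 76.7, 77.0 and 77.9 in batch 3 (SD 0.722 to 6.58, n = 3 or 4). PSMD13 and PSMD8, structural subunits of the lid, were higher by 0.53 ± 0.03 and 0.59 ± 0.03 in batch 2. For PSMD4 the median was 91.1 CPM in batch 1 (85.3 to 96.6), 119 in batch 2 (113 to 121) and 105 in batch 3 (99.5 to 114). PSMD4, a ubiquitin receptor, was higher by 0.38 ± 0.03 (adjusted p = 1.57e-13) and 0.21 ± 0.03, with ranges apart from batch 1 in both. By medium, in the order EV, WT and MUT, PSMD4 averaged 89.8, 91.9 and 91.3 CPM in batch 1, 118, 120.0 and 117 in batch 2, and 104, 103 and 109 in batch 3 (SD 0.856 to 4.87, n = 3 or 4). PSMD12 had the one non-ATPase difference in batch 3 that missed the threshold, at 0.12 ± 0.05 (adjusted p = 0.0514).

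**Figure D3:**
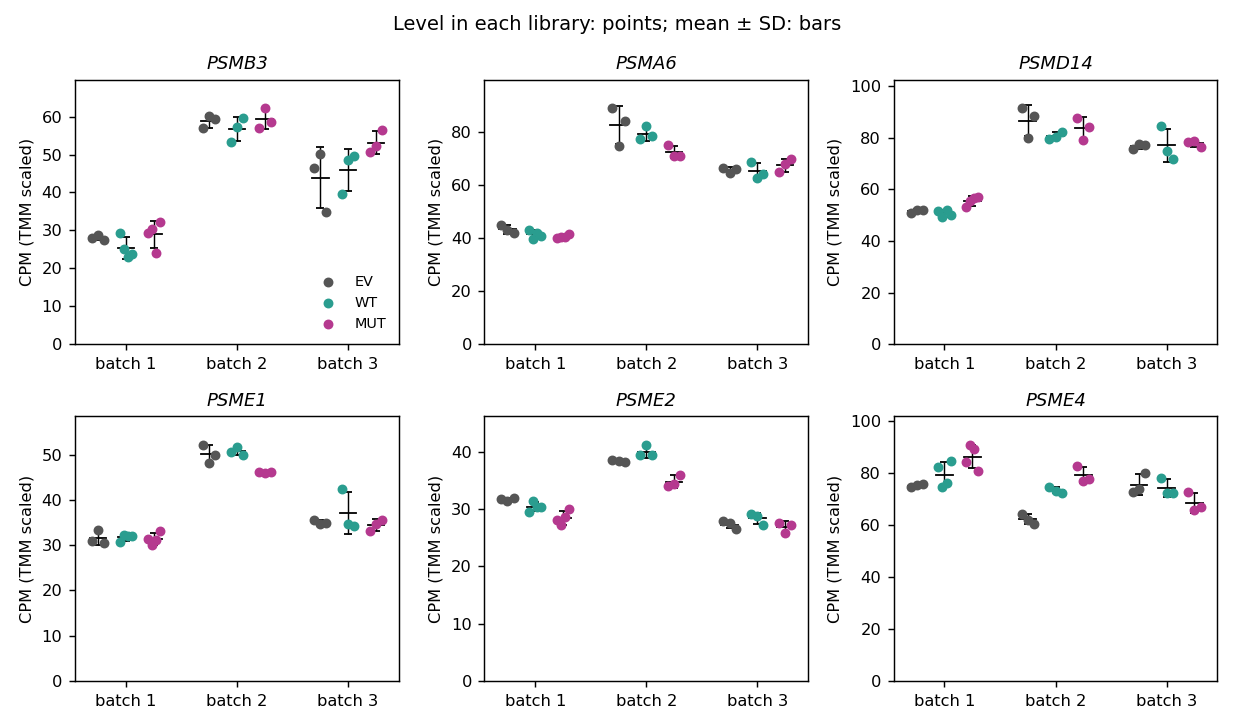
CPM of PSMB3, PSMA6, PSMD14, PSME1, PSME2 and PSME4 in each library (points, coloured by medium) with the mean and SD of each set. The first 3 are lowest in batch 1 in every medium, PSME1 and PSME2 are highest in batch 2, and PSME4 in batch 2 runs from EV at the bottom to MUT at the top.

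The cap's assembly chaperones were higher in batch 2 in 3 of 3 cases, PSMD10 (gankyrin) by 0.64 ± 0.04, PSMD5 by 0.55 ± 0.03 and PSMD9 by 0.19 ± 0.04. In batch 3 their differences from batch 1 were 0.35, 0.49 and 0.13, and all 3 passed. Of the core's chaperones, 3 of 4 were higher in batch 2 and 1 lower, and 3 of 4 were higher in batch 3. PSMG2 ranged from 25.8 to 31.4 CPM in batch 1 (median 29.1), from 32.9 to 44.6 in batch 2 (median 37.1) and from 34.4 to 38.0 in batch 3 (median 36.4). PSMG2, the partner of PSMG1, differed by 0.36 ± 0.04 (adjusted p = 2.69e-08) and 0.32 ± 0.04, and its batch 1 libraries were all the lowest. The batch 1 libraries held 12.2 to 16.5 CPM of PSMG3 (median 15.0), those of batch 2 15.2 to 17.3 (median 16.8) and those of batch 3 15.3 to 18.9 (median 16.6). PSMG3, partner of PSMG4, differed by 0.18 ± 0.05 (adjusted p = 0.00113) and 0.21 ± 0.05. PSMG3 means for EV, WT and MUT were 14.9, 15.2 and 13.9 CPM in batch 1, 16.6, 17.0 and 16.2 in batch 2, and 16.9, 17.7 and 16.1 in batch 3 (SD 0.25 to 1.79, n = 3 or 4). For PSMG4 the median was 18.4 CPM in batch 1 (15.5 to 21.1), 15.3 in batch 2 (13.5 to 19.2) and 17.0 in batch 3 (16.1 to 18.5). PSMG4 was lower in batch 2 by 0.20 ± 0.05 on the log2 scale (a change of -0.20, adjusted p = 0.000669), with ranges that overlapped, and the batch 3 value was -0.09 ± 0.05 (adjusted p = 0.126). In batch 2 PSMG4 stood at -0.07 in EV libraries alone (adjusted p = 0.356), and at -0.30 in WT and -0.25 in MUT, which both passed.

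PSME1 (chr14:24136158-24138967, plus strand) and PSME2 (chr14:24143362-24147570, minus strand) are neighbours, and both are known interferon-induced genes. PSME1 ranged from 30.0 to 33.3 CPM in batch 1 (median 31.3), from 46.0 to 52.2 in batch 2 (median 50.0) and from 33.1 to 42.4 in batch 3 (median 34.8). The batch 1 libraries held 27.1 to 31.9 CPM of PSME2 (median 30.4), those of batch 2 34.0 to 41.2 (median 38.3) and those of batch 3 25.8 to 29.1 (median 27.5). Batch 2 was the highest for both, with no overlap with either other batch. PSME1 was higher in batch 2 by 0.63 ± 0.03 (adjusted p = 7.31e-16) and in batch 3 by 0.17 ± 0.03, so that batch 3 lay below batch 2 by 0.46 (-0.46 ± 0.04, adjusted p = 3.12e-11). PSME2 was higher in batch 2 by 0.33 ± 0.03 (adjusted p = 3.27e-11) and fell below batch 1 in batch 3, at -0.13 ± 0.03 (adjusted p = 0.000388). Between batches 3 and 2 its difference was -0.45 ± 0.03 (adjusted p = 1.71e-12). With the length and GC offsets PSME1 stood at -0.04 in batch 3 against batch 1 and did not pass.

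Interferon-induced genes of antigen presentation moved in the same batch. Of 15 tested genes on that list, 13 were higher and 1 lower in batch 2 than in batch 1, with a median of 0.98, and 14 were lower in batch 3 than in batch 2, with a median of -0.91. TAP1, the peptide transporter, was higher by 1.96 in batch 2, whereas NLRC5, an activator of HLA class I genes, was at -0.95. PSMB8, PSMB9 and PSMB10, which replace the catalytic β subunits in the immunoproteasome, were higher by 0.98, 2.30 and 0.92, from low levels: the batch 1 and batch 2 medians were 2.28 and 4.28 CPM for PSMB8, 0.0513 and 0.435 for PSMB9, and 4.93 and 11.1 for PSMB10. The summed level of the list was 556 to 616 CPM in batch 1 and 597 to 698 in batch 3. In batch 2 it was 707 to 784 CPM in EV, 1654 to 1720 in WT and 869 to 909 in MUT libraries, while PSME1 averaged 50.1 CPM in EV and 50.8 in WT there, and PSME2 38.4 and 40.0. Its part in the batch differences of PSME1 and PSME2 was not tested.

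For PSME3 the median was 124 CPM in batch 1 (118 to 135), 146 in batch 2 (140.3 to 159) and 140.3 in batch 3 (131 to 146). PSME3, the PA28 form that does not depend on interferon, was higher by 0.25 ± 0.03 in batch 2 (adjusted p = 3.25e-08) and by 0.16 ± 0.03 in batch 3, but with the length and GC offsets it stood at -0.02 and -0.06. PSME4 ranged from 74.4 to 90.8 CPM in batch 1 (median 80.9), from 60.4 to 82.6 in batch 2 (median 72.9) and from 65.6 to 80.1 in batch 3 (median 72.6). PSME4, which encodes the large activator PA200, went the other way: it was lower in batch 2 (-0.17 ± 0.05, adjusted p = 0.00255) and in batch 3 (-0.14 ± 0.05, adjusted p = 0.0149), with ranges that overlapped in both. Media alone differed for PSME4: batch 2 passed in EV (-0.29) and not in WT (-0.12) or MUT (-0.13), and batch 3 passed in MUT (-0.34) and not in EV (-0.01, adjusted p = 0.901) or WT (-0.12). The batch 1 libraries held 159.6 to 187 CPM of PSMF1 (median 174), those of batch 2 193 to 211 (median 202) and those of batch 3 185 to 194 (median 190.4). PSMF1, the inhibitor PI31, was higher by 0.22 ± 0.03 (adjusted p = 2.21e-08) and 0.14 ± 0.03.

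PSMC3IP and PSME3IP1 match the rule by name and are no proteasome subunits. PSMC3IP, a recombination cofactor, was lower in batch 2 (-0.48 ± 0.09, adjusted p = 2.34e-05) and higher in batch 3 than in batch 2 (0.33 ± 0.09, adjusted p = 0.00475). Both directions came from the CEL media. In EV libraries alone PSMC3IP stood at 0.00 in batch 2 against batch 1 (adjusted p = 0.990), while WT and MUT libraries stood at -0.87 and -0.62. Batch 3 against batch 2 was -0.19 in EV (adjusted p = 0.0242), against 0.79 in WT and 0.42 in MUT. PSME3IP1, an interactor of PSME3, differed by 0.12 ± 0.02 in batch 2.

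Genes outside the symbol rule that serve the proteasome were read from lists, beside 33.8% of all genes higher and 33.0% lower in batch 2. Of 13 partners, 11 were higher and 1 lower in batch 2 than in batch 1, with a median of 0.28. They included POMP, the maturation factor of the core (0.48 ± 0.04), SEM1, a small lid subunit (0.43), and TXNL1, a thioredoxin bound to the cap (0.40). In batch 3, 8 were higher and 1 lower than in batch 1. Of 17 genes of ubiquitin supply and shuttling, 14 were higher and 2 lower in batch 2, with a median of 0.21, and UBB, a ubiquitin gene, was higher by 0.53. Of 14 tested genes of the NFE2L1 pathway, 8 were higher and 4 lower, with a median of 0.15. For NFE2L1 the median was 325 CPM in batch 1 (311 to 360.1), 385 in batch 2 (356 to 479.9) and 317 in batch 3 (305 to 323). NFE2L1 itself was higher in batch 2 by 0.30 ± 0.05 (adjusted p = 9.44e-07). In batch 3 it stood at -0.06 ± 0.05 (adjusted p = 0.288). DDI2, the protease that releases active NFE2L1, was lower in batch 2 (-0.53). These are transcript levels, and the part of NFE2L1 in the members' differences was not tested.

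Across the 3 batches together, the media changed few proteasome genes. Between MUT and EV 4 members passed, where 5.35% of all genes did: PSMD1 and PSMD2 were higher and PSME2 and PSMG4 lower. The 4 calls fell to 0 with an estimated correlation between libraries of a set (0.43), with the replicate number as a block and with no filter on low counts. What share of all genes passed in those fits is not given here. With the same test 13 members had an unadjusted p under 0.05. The median difference was 0.03 for members and 0.00 for all genes, and 31 of the 45 lay above 0. Between MUT and WT 1 member passed, PSME2, where 1.03% of all genes did, and 9 had an unadjusted p under 0.05. Between WT and EV 0 members passed with edgeR, where 0.32% of all genes did. DESeq2 also called 0 there, and 4 had an unadjusted p under 0.05 with edgeR. MUT against EV and WT against EV share the EV libraries, and both comparisons with MUT share its libraries.

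PSME2 ranged from 26.6 to 38.6 CPM in the 9 EV libraries (median 31.7), from 27.2 to 41.2 in the 10 WT libraries (median 30.4) and from 25.8 to 36.0 in the 10 MUT libraries (median 28.3). The ranges over all batches overlapped widely, but within batch 1 the EV libraries held 31.4 to 31.9 CPM and the MUT libraries 27.1 to 29.9, and within batch 2 they held 38.3 to 38.6 and 34.0 to 36.0. In batch 3 they overlapped, at 26.6 to 27.8 and 25.8 to 27.7. Mean PSME2 levels in EV, WT and MUT medium were 31.7, 30.4 and 28.4 CPM in batch 1, 38.4, 40.0 and 34.8 in batch 2, and 27.3, 28.4 and 26.9 in batch 3 (SD 0.19 to 1.17, n = 3 or 4). PSME2 was lower in MUT than in EV by 0.11 (-0.11 ± 0.03, adjusted p = 0.0360) and lower than in WT by 0.12 (-0.12 ± 0.03, adjusted p = 0.0316). The within-batch values for MUT against WT were -0.12, -0.19 and -0.08 in batches 1, 2 and 3. PSME1, its partner, stood at -0.05 ± 0.04 against EV over all batches.

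PSMD1 ranged from 116 to 159 CPM in the 9 EV libraries (median 145), from 119 to 165 in the 10 WT libraries (median 149) and from 127 to 172 in the 10 MUT libraries (median 151). PSMD2 ranged from 235 to 259 CPM in the 9 EV libraries (median 251), from 228 to 269.8 in the 10 WT libraries (median 258) and from 235 to 285 in the 10 MUT libraries (median 260.3). PSMD1 and PSMD2 encode the large scaffold subunits of the cap's base. Their media overlapped, and MUT exceeded EV by 0.10 ± 0.03 for PSMD1 (adjusted p = 0.0395) and 0.09 ± 0.02 for PSMD2 (adjusted p = 0.0332). For PSMD1 the difference was 0.15 in batch 1, 0.12 in batch 2 and 0.01 in batch 3, and for PSMD2 it was 0.03, 0.17 and 0.06. PSMG4 ranged from 16.8 to 19.3 CPM in the 9 EV libraries (median 17.8), from 14.4 to 21.1 in the 10 WT libraries (median 17.0) and from 13.5 to 18.4 in the 10 MUT libraries (median 16.7). PSMG4 was lower in MUT than in EV (-0.17 ± 0.05, adjusted p = 0.0409), with -0.16, -0.34 and -0.02 in batches 1, 2 and 3. By medium, in the order EV, WT and MUT, PSMG4 averaged 18.8, 18.9 and 17.0 CPM in batch 1, 18.1, 15.4 and 14.3 in batch 2, and 17.3, 17.2 and 17.0 in batch 3 (SD 0.227 to 1.66, n = 3 or 4).

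These calls rested on few libraries. Against EV, none was left when any of the 3 EV or 3 MUT libraries of batch 2, or MUT replicate 2 of batch 1, was left out, and none when the libraries of each batch and medium were summed. Without EV replicate 2 of batch 1, 1 call was left. Without EV replicate 4, MUT replicate 3 or MUT replicate 4 of batch 1, 2 were left. The call on PSME2 against WT was lost without any WT or MUT library of batch 2, without WT replicate 2, MUT replicate 1 or MUT replicate 2 of batch 1, and without WT replicate 2 of batch 3.

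The listed partners showed as little. Higher in MUT than in EV were ZFAND5, a proteasome-binding zinc finger protein, by 0.11, and SEL1L, the adaptor of an endoplasmic reticulum ubiquitin ligase, by 0.17. The ubiquitin shuttles UBQLN2 and UBQLN1 were higher by 0.11 and 0.10, and FAF2, an adaptor of the segregase VCP, by 0.11. No interferon-list gene passed against EV, and NLRC5 alone was lower in MUT than in WT (-0.43). Between WT and EV no gene of these 4 lists passed.

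Differences between media were also compared between batches. A test of the difference itself, edgeR with a mean for each batch and medium, called 21 members for MUT against EV, 11 for WT against EV and 7 for MUT against WT. Of all genes tested, 44.2%, 24.1% and 28.4% passed, so that the members' counts lay near or below the share over all genes. Without batch 2 the counts were 4, 0 and 0, and without batch 3 they were 11, 9 and 3. For MUT against WT the count fell to 2 without WT replicate 1, MUT replicate 2 or MUT replicate 3 of batch 3, to 4 without WT replicate 1, WT replicate 3 or MUT replicate 3 of batch 2, and rose to 12 without WT replicate 3 of batch 3. For WT against EV it fell to 7 without EV replicate 3 or WT replicate 1 of batch 2. For these fits with a batch or a library left out, the share of all genes that passed is not given here. The changes in count are thus not read as particular to the members. In batch 1 alone no member passed between any media, where 0.0143% of all genes passed for MUT against EV, 0.00955% for MUT against WT and 0.00955% for WT against EV. In batch 3 alone no member passed either, where 0.0932%, 0.647% and 0.00981% of all genes did. Unadjusted p under 0.05 was reached in edgeR by 8, 4 and 1 members in batch 1, and by 9, 6 and 1 in batch 3, in the same order. In batch 2 alone 19 members passed for MUT against EV (6 higher, 13 lower), where 47.4% of all genes did. For WT against EV 14 passed there (3 higher, 11 lower; 38.2% of all genes), and for MUT against WT 10 (5 higher, 5 lower; 32.5%).

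**Figure D4:**
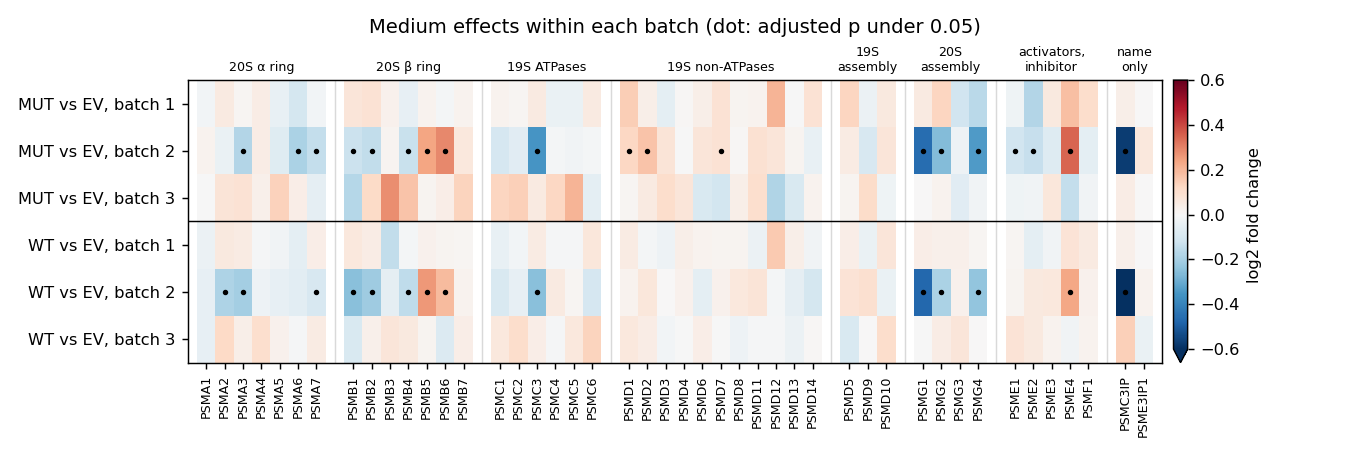
Log2 difference of MUT and of WT against EV for each member in each batch alone, coloured from blue (lower than EV) to red (higher). Dots mark adjusted p under 0.05 and lie in the batch 2 rows only, and the darkest cell, PSMC3IP under WT in batch 2, has a value of -0.86, past the end of the colour scale.

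PSMG1 (chr21:39174769-39183851, minus strand), the chaperone that with PSMG2 starts the α ring, had the largest medium differences among the assembly factors in batch 2. Over all batches it stood at -0.13 for MUT against EV and did not pass (adjusted p = 0.166), whereas PSMG4 passed at -0.17 (adjusted p = 0.0409). In batch 2 its EV libraries held 34.4, 30.7 and 33.1 CPM. The WT libraries held 23.7, 23.7 and 23.7 CPM, and the MUT libraries 24.5, 22.7 and 24.0. Every EV library was thus above every WT and MUT library there, and the differences were -0.47 for WT (adjusted p = 2.63e-05) and -0.46 for MUT (adjusted p = 2.00e-05). PSMG1 means for EV, WT and MUT were 20.9, 21.5 and 22.0 CPM in batch 1, 32.7, 23.7 and 23.8 in batch 2, and 26.2, 26.1 and 26.2 in batch 3 (SD 0.0223 to 1.95, n = 3 or 4). In batches 1 and 3 the values were 0.04 and 0.00 for WT, and 0.05 and 0.00 for MUT. The difference between batches had an adjusted p of 3.17e-06 for MUT against EV and 9.18e-06 for WT against EV. The difference of batch 2 against batch 1 was 0.63 for PSMG1 in EV libraries, 0.13 in WT and 0.11 in MUT.

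The other core chaperones went the same way in batch 2, apart from PSMG3. PSMG2 held 44.6, 38.4 and 42.1 CPM in EV, 35.2, 37.8 and 37.1 in WT, and 36.0, 32.9 and 35.2 in MUT. The EV libraries were the highest, and the differences were -0.19 for WT (adjusted p = 0.0226) and -0.26 for MUT (adjusted p = 0.00272). Mean PSMG2 levels in EV, WT and MUT medium were 28.0, 28.5 and 30.9 CPM in batch 1, 41.7, 36.7 and 34.7 in batch 2, and 36.0, 37.0 and 36.5 in batch 3 (SD 0.573 to 3.09, n = 3 or 4). For PSMG4 the batch 2 differences were -0.24 for WT and -0.34 for MUT (adjusted p = 0.0228 and 0.00228). PSMG3 stood at 0.03 and -0.03, and neither passed.

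Of the catalytic subunits, PSMB5 and PSMB6 were higher in batch 2 under both CEL media. PSMB5 held 157, 162 and 164 CPM in EV, 194, 191 and 194 in WT, and 182, 192 and 192 in MUT, so that EV lay apart. It was higher by 0.26 in WT (adjusted p = 8.25e-05) and 0.23 in MUT (adjusted p = 0.000125). By medium, in the order EV, WT and MUT, PSMB5 averaged 132, 134 and 135 CPM in batch 1, 161, 193 and 189 in batch 2, and 170.1, 171 and 172 in batch 3 (SD 1.82 to 8.22, n = 3 or 4). PSMB6 held 79.0, 81.3 and 79.5 CPM in EV, 93.0, 88.7 and 92.7 in WT, and 93.4, 100.4 and 98.4 in MUT, again with EV apart, and was higher by 0.19 and 0.29. PSMB6 means for EV, WT and MUT were 54.9, 55.4 and 55.2 CPM in batch 1, 80.0, 91.5 and 97.4 in batch 2, and 74.1, 69.8 and 76.3 in batch 3 (SD 0.579 to 7.79, n = 3 or 4). PSMB7 stood at 0.02 and 0.06 and did not pass. Other β subunits moved the opposite way: PSMB1 was at -0.25 in WT and -0.13 in MUT, PSMB2 at -0.21 and -0.15, and PSMB4 at -0.15 and -0.13, all past the threshold.

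**Figure D5:**
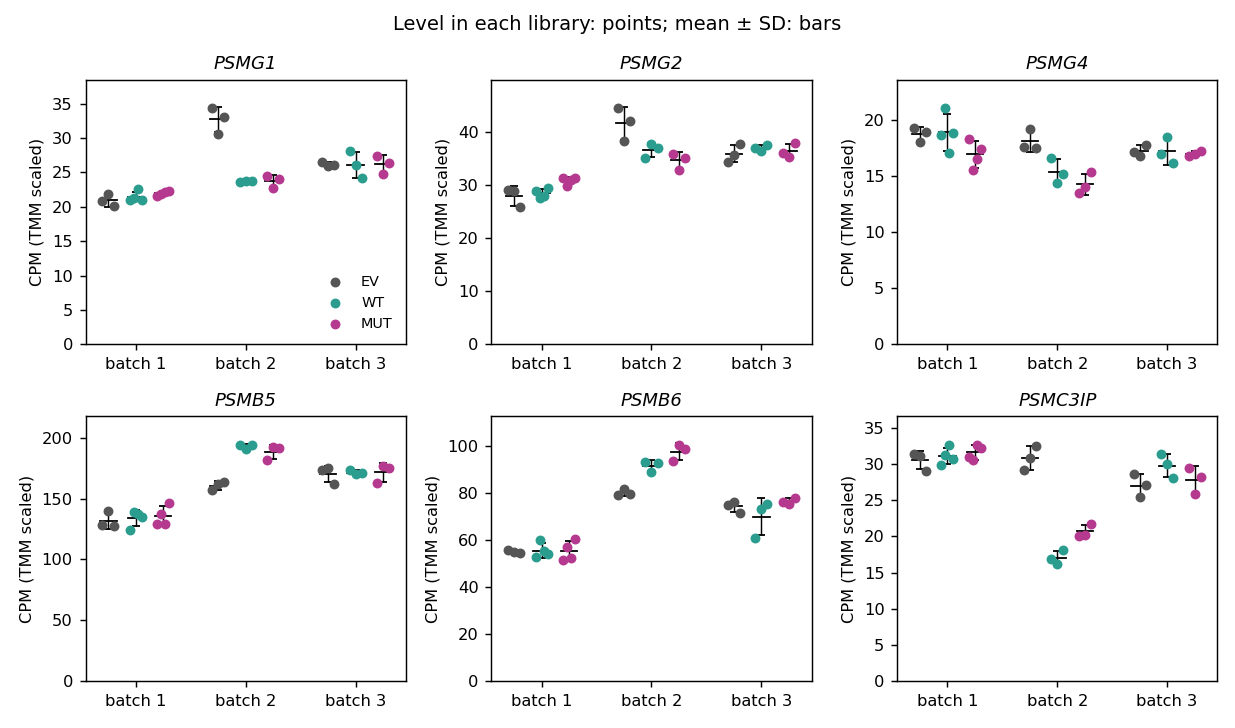
CPM of PSMG1, PSMG2, PSMG4, PSMB5, PSMB6 and PSMC3IP in each library (points, coloured by medium) with the mean and SD of each set. In batch 2 the EV libraries stand above the CEL media for PSMG1, PSMG2 and PSMC3IP and below them for PSMB5 and PSMB6, and in batches 1 and 3 EV overlaps both CEL media for PSMG1, PSMB5 and PSMB6.

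In the cap, PSMC3, an ATPase, was lower in batch 2 under WT (-0.25, adjusted p = 0.000297) and MUT (-0.35, adjusted p = 1.36e-05). PSMD1, PSMD2 and PSMD7, a structural lid subunit, were higher under MUT by 0.12, 0.17 and 0.09. In the α ring, PSMA3 and PSMA7 were lower under both CEL media, PSMA6 under MUT and PSMA2 under WT. PSMD14, PSMD4 and PSMC6 passed under neither.

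The activators diverged. PSME4 held 64.3, 61.9 and 60.4 CPM in EV, 74.6, 72.9 and 72.4 in WT, and 82.6, 77.0 and 77.8 in MUT in batch 2, with no overlap between the 3 media. It was higher by 0.23 in WT (adjusted p = 0.000624) and 0.35 in MUT (adjusted p = 1.85e-05). Mean PSME4 levels in EV, WT and MUT medium were 75.1, 79.3 and 86.3 CPM in batch 1, 62.2, 73.3 and 79.1 in batch 2, and 75.5, 74.2 and 68.4 in batch 3 (SD 0.566 to 4.90, n = 3 or 4). In batch 1 MUT exceeded EV by 0.18 (adjusted p = 0.0821) and in batch 3 it was at -0.14 (adjusted p = 0.296). The difference between batches had an adjusted p of 3.33e-05.

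PSME1 and PSME2 were lower in batch 2 under MUT, by 0.11 and 0.14 against EV (-0.11 and -0.14) and by 0.13 and 0.19 against WT (-0.13 and -0.19). Both passed. By medium, in the order EV, WT and MUT, PSME1 averaged 31.5, 31.8 and 31.4 CPM in batch 1, 50.1, 50.8 and 46.1 in batch 2, and 35.1, 37.1 and 34.5 in batch 3 (SD 0.153 to 4.57, n = 3 or 4). The interferon list's summed level, given above, was higher in WT and MUT than in EV in batch 2. There PSME1 and PSME2 stood at 0.02 and 0.06 in WT against EV, without passing, and were lower in MUT. The part of the interferon list in these medium differences was not tested. PSME3 and PSMF1 were lower in MUT than in WT in batch 2 (-0.14 and -0.08). PSME3 means for EV, WT and MUT were 123, 122 and 130.1 CPM in batch 1, 149, 156 and 141 in batch 2, and 137, 139 and 144 in batch 3 (SD 0.607 to 8.22, n = 3 or 4). Mean PSMF1 levels in EV, WT and MUT medium were 165, 171 and 179.9 CPM in batch 1, 203, 207 and 194 in batch 2, and 190.3, 193 and 188 in batch 3 (SD 1.03 to 8.35, n = 3 or 4).

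PSMC3IP had the largest medium effect of any member. In batch 2 it held 29.1, 30.8 and 32.5 CPM in EV, 16.9, 16.2 and 18.1 in WT, and 20.1, 20.3 and 21.7 in MUT. The 3 media did not overlap, and the differences from EV were -0.86 for WT (adjusted p = 6.38e-07) and -0.57 for MUT (adjusted p = 9.47e-06). In batches 1 and 3 the values lay between 0.03 and 0.14, and none passed.

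Some counts carry a limit from the annotation. PSMA3 overlaps PSMA3-AS1, an antisense gene at 68.9 CPM, and PSMG3 overlaps PSMG3-AS1, at 9.63 CPM. Whether the counting used the strand is not given in the sources used here. PSMC1 has a processed copy, PSMC1P1, at 3.61 CPM, with which its reads may be shared.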

How the data were processed

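Poly(A) RNA libraries (TruSeq Stranded mRNA, paired reads) of 29 EndoC-βH1 samples were used. The authors deposited estimated counts per gene entry for every library, made with fastp and kallisto per the submitters' processing notes. Not given in the sources used here: versions, build, annotation release, and how transcripts were summed to genes. The estimated counts were rounded to whole numbers, and 59369 of 66025 entries received a symbol by Ensembl ID. Gene coordinates, transcript lengths and GC content came from GENCODE release 29 (GRCh38), and promoter windows from RefSeq (GRCh38.p14). Length and GC content were those of the longest transcript among those that shared a gene's best principal-transcript rank.

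Libraries were grouped by the labels' medium and batch. Genes were filtered with filterByExpr, which left 21259, and scaled with TMM in edgeR 4.0.16 (limma 3.58.1, R 4.3.3). The quasi-likelihood fit had batch and medium as terms, all 29 libraries and 24 residual degrees of freedom. Calls were made at a Benjamini-Hochberg adjusted p under 0.05 over all genes, and a standard error is the log2 difference divided by the square root of its F value. Differences between batches were tested with a mean for each batch and medium. CPM values are TMM-scaled, and variance shares are sums of squares of log2 CPM with a prior count of 2. The members averaged 15.9 to 254 CPM at 26201744 to 40246537 counts per library. Counting error is small for most of them and weighs more for the lowest, PSMG3 and PSMG4. The scripts were tested on simulated data.

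Named were all members, with set values for the catalytic subunits, PSMD14, PSMD4, PSMA7, PSMC6, the activators, PSMF1, PSMG1 to PSMG4 and the 6 members with the smallest p per contrast, and up to 4 genes per list, plus NFE2L1, POMP, PSMB8, PSMB9 and PSMB10. PSMC3IP and PSME3IP1 are members by name. The members and lists were chosen with earlier results of these data known. Alternatives were other scalings, filters on low counts, DESeq2 1.42.0, limma voom, fits without batch, within or without each batch or medium, summed sets, a replicate block, each library left out and, chosen after the data were seen, length and GC offsets (mgcv 1.9.3).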

Additional observations from a re-analysis of the deposited data

Results flagged for a closer look

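For 39 of 135 medium effects on the 45 members, the effect differed between the 3 batches in edgeR's test of that difference, and these are given with their adjusted p. For MUT against EV, where 44.2% of all genes passed, they were PSMC3IP (7.04e-07), PSMG1 (3.17e-06), PSME4 (3.33e-05), PSMC3 (0.000137), PSMG2 (0.000244), PSMB2 (0.000297), PSMB1 (0.000684), PSMC5 (0.00583), PSMB4 (0.00730), PSMA3 (0.00778), PSMD12 (0.00851), PSMF1 (0.00861), PSMD7 (0.0104), PSMC2 (0.0106), PSMB6 (0.0170), PSMA5 (0.0171), PSMB5 (0.0202), PSMC1 (0.0224), PSMA6 (0.0303), PSME3 (0.0353) and PSMG4 (0.0420). For MUT against WT, where 28.4% passed, they were PSME3 (0.00289), PSMC3IP (0.00530), PSME4 (0.0229), PSMF1 (0.0280), PSMD9 (0.0319), PSMD7 (0.0346) and PSMB1 (0.0371). For WT against EV, where 24.1% passed, they were PSMC3IP (1.07e-09), PSMG1 (9.18e-06), PSMB1 (0.000448), PSMB2 (0.00112), PSMB5 (0.00833), PSMC3 (0.00981), PSMA3 (0.0122), PSMA2 (0.0186), PSME4 (0.0321), PSMG2 (0.0386) and PSMB6 (0.0460). The core's chaperones PSMG1 and PSMG2 were lower under both CEL media in batch 2 and near or above EV in batches 1 and 3, while the catalytic PSMB5 and PSMB6 were higher in batch 2.

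Over the 9 or 10 libraries of a medium, batches pooled, 0 of 135 groups held a library far from the rest. Sets of 3 libraries were not tested for this. In batch 3, WT replicate 1 differed from the other two for several members: the 3 libraries held 89.4, 70.1 and 69.4 CPM of PSMC6, 42.4, 34.7 and 34.3 of PSME1, 69.7, 56.2 and 52.3 of PSMD12, and 60.9, 73.2 and 75.2 of PSMB6. Without it the count of members whose MUT against WT effect differed between batches was 2 in place of 7.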

How the results depend on the processing

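Counting error is small for most members and weighs more for the lowest, PSMG3 and PSMG4 (means of 15.9 and 17.2 CPM). The cause of the changes below was not tested. Except for single batches, the share of all genes that passed in each setting is not given, so the changes are not read as particular to the members. For MUT against EV (4 members) the count was 0 with no low-count filter, with voom and quality weights, with voom and correlated libraries (correlation 0.43), with the replicate block, with no batch term, with only the media compared, in batch 1 or batch 3 alone, without batch 2 and with libraries summed, 2 without batch 1, 19 in batch 2 alone and 10 without batch 3. For MUT against WT (1 member) it was 0 with no low-count filter, both voom fits, the replicate block, no batch term, batch 1 or batch 3 alone, without batch 1 or batch 2 and summed, 10 in batch 2 alone and 2 without batch 3. For WT against EV (0) it was 14 in batch 2 alone and 2 without batch 3. For batch 3 against batch 2 (27) it was 16 with voom and correlated libraries, 16 in MUT libraries alone and 6 summed. The difference between batches gave for MUT against EV (21) 13 with no low-count filter, 4 without batch 2 and 11 without batch 3. For MUT against WT (7) it gave 4 with no low-count filter, 13 with length and GC offsets, 0 without batch 2 and 3 without batch 3, and for WT against EV (11) 0 without batch 2. Voom with correlated libraries and summed sets had no such fit. With one library left out the counts ran from 0 to 5 for MUT against EV, 0 to 1 for MUT against WT and 0 to 0 for WT against EV. They ran from 45 to 45, 38 to 40 and 25 to 29 for batches 2 and 3 against 1 and 3 against 2, and from 16 to 22, 2 to 12 and 7 to 12 for the differences between batches of MUT against EV, MUT against WT and WT against EV.

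Directions reversed in batch 2 alone for PSMB2 in MUT against EV (-0.15) and PSME3 in MUT against WT (-0.14). With length and GC offsets they reversed in batch 2 against 1 for PSME3 (-0.016) and PSME3IP1 (-0.00756), and in batch 3 against 1 for PSMC5 (-0.049), PSMC6 (-0.039), PSMD7 (-0.025), PSME1 (-0.036) and PSME3 (-0.063). In one medium alone they reversed for PSMC3 in batch 2 against 1 (MUT, -0.029), PSMC5 in batch 3 against 1 (EV, -0.025) and, in batch 3 against 2, PSMC3IP (EV, -0.19), PSMC5 (MUT, 0.027), PSMC6 (WT, 0.027), PSME3 (MUT, 0.024) and PSME4 (MUT, -0.22). The replicate block called 19, 8 and 9 members for the differences between batches. Same-numbered libraries correlated from -0.16 to 0.36 over 28 pairs, and 14 of 29 libraries were closest to their own number. No count for unpaired libraries was computed beside it, so this check does not settle whether the numbers pair the libraries.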
